A study of Mus musculus with 2 samples.

Results

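The linker histone H1 genes are H1f0, H1f2, H1f3, H1f4 and H1f10, 5 of the 55357 genes listed for each library, taken by their symbols from the rows of both count matrices. The series holds 1 droplet single-cell RNA-seq library (10x Genomics Chromium) from livers of mice with CCl4-induced fibrosis that also received IPA, labelled CCl4+IPA, and 1 library from livers of mice with CCl4-induced fibrosis and no IPA, labelled CCl4. CCl4 (carbon tetrachloride) is a hepatotoxin used to scar the liver of rodents, and IPA (indole propionic acid) is a tryptophan metabolite made by gut bacteria. Both groups carried the CCl4 injury, so neither is an uninjured liver, and the strain, age, sex, doses, duration and number of pooled animals are not given in the sources used here. Liver tissue was digested with enzymes, red cells were lysed and dead cells were removed before capture. The members were chosen with their values in these libraries known, so their levels and differences are descriptions. Each group is a single library, so no difference below could be checked against replicates, and every interval is a 95% interval for counting error only.

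Linker histones bind the nucleosome where DNA enters and leaves it and help fold the chromatin fibre. H1f2, H1f3 and H1f4 encode the replication-dependent subtypes H1.2, H1.3 and H1.4, which lie in the large histone gene cluster of mouse chromosome 13 and are made mainly while DNA is copied. H1f0 encodes H1.0, a replacement subtype known for its accumulation in differentiated and non-dividing cells, and H1f10 encodes H1.10 (H1x), another replication-independent subtype. Transcripts of replication-dependent histone genes usually end in a stem-loop in place of a poly(A) tail, and some of these genes also give polyadenylated transcripts. Droplet capture primes on poly(A), so the counts describe the captured transcripts and not all transcripts of these genes. For that reason levels of expression are compared within a gene, and UMI totals of different genes say only how many counts each had.

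The windows upstream of the transcription start are shown because shared letters set H1f2, H1f3 and H1f4 apart from H1f0 and H1f10. Each covers 130 bases on the gene's own strand up to the last base before the annotated start, from RefSeq's promoter table on GRCm38.p6, a build used here only for these windows. Capitals mark AACAAACACA, which holds the AAACACA element known as the H1 box, and the CCAAT box. AACAAACACA was taken from these promoters, as the longest run around AAACACA shared by H1f2, H1f3 and H1f4.
H1f2 (chr13:23738677-23738806, plus strand): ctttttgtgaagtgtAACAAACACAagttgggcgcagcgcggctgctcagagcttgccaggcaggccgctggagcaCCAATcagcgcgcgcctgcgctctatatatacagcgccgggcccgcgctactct
H1f3 (chr13:23554902-23555031, plus strand): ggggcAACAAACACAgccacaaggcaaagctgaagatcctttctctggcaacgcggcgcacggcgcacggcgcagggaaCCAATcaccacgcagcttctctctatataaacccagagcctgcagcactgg
H1f4 (chr13:23622559-23622688, minus strand): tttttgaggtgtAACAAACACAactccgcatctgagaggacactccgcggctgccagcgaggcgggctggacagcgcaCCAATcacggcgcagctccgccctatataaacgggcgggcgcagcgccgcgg
H1f0 (chr15:79028082-79028211, plus strand): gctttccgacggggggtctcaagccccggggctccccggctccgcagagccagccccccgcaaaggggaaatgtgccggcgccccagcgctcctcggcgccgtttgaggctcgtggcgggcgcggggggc
H1f10 (chr6:87981483-87981612, minus strand): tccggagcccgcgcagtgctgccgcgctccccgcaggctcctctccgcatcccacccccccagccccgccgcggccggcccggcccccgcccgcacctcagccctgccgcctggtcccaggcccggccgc

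In H1f2, H1f3 and H1f4 the 10-letter run began 115, 125 and 118 bases before the start, and the CCAAT box began 54, 51 and 52 bases before it. Neither run was present in the 300-base promoter entries of H1f0 and H1f10. Searched on both strands, AACAAACACA occurred in 0.253% of 32851 mouse promoters of that length, AAACACA, which it contains, in 7.18% and CCAAT in 37.4%. The presence of AACAAACACA in H1f2, H1f3 and H1f4 was fixed by how it was chosen, so its share is printed for scale only. The members split in the same way at the other end of their transcripts. One GENCODE transcript each of H1f2, H1f3 and H1f4 held the histone stem-loop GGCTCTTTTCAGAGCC at 25, 32 and 41 bases after the longest open reading frame. The transcripts of H1f0 and H1f10 held no match to the searched letters GGNNCTTTTNAGNGCC, which occurred in 0.085% of 58797 transcripts. Absence of these letters does not mark the replication-independent subtypes. The transcripts of H1f1 and H1f5, replication-dependent subtypes outside the members, held no match either, with 48 and 0 annotated bases after the reading frame. The promoter entry of H1f1 also held no AAACACA, while that of H1f5 did. Annotated sequence continued past the stem-loop for 840 bases in H1f2, 4884 bases in H1f3 and 1153 bases in H1f4.

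The CCl4+IPA library held 37983923 UMIs in 10471 barcodes and the CCl4 library 45009730 UMIs in 10427 barcodes, with medians of 2771 and 3172 UMIs per barcode. The libraries shared 23 barcode sequences. After filters on depth, genes and mitochondrial UMIs and after removal of doublet calls, 10128 cells of the CCl4+IPA library and 10016 cells of the CCl4 library were kept. A cell was assigned to a class when at least 2 of that class's markers were detected and at least 2 times as many as of any other class, which placed 9109 and 8674 cells. Of the classes, 7 held 50 or more cells in both libraries, namely B cells (3283 cells in CCl4+IPA, 3832 in CCl4), T cells (3177 and 2475), NK cells or ILC1 (873 and 440), neutrophils (1000 and 792), mononuclear phagocytes (218 and 462), plasmacytoid dendritic cells (349 and 394) and stromal or mesothelial cells (86 and 102). Median detected markers of the own class exceeded those of all other classes together in each of the 7, most narrowly in plasmacytoid dendritic cells, at 9 against 8. Levels below are counts per 1000000 UMIs of a class (CPM).

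The counts behind the members differed. H1f2 had 10176 UMIs in the kept cells of the CCl4+IPA library and 13518 in those of the CCl4 library. H1f4 had 3534 and 9165 UMIs, H1f0 had 1572 and 1890, and H1f3 had 1399 and 2435. H1f10 had 94 and 118 UMIs, too few for most classes. Of the other linker histone genes in the files, H1f1 (304 and 484 UMIs) and H1f5 (2762 and 5228 UMIs), both replication-dependent subtypes, were detected. The germ-line subtypes H1f6, H1f7, H1f8 and H1f9 and the pseudogene H1f11-ps had between 0 and 6 UMIs each.

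H1f2 was highest in B cells, at 522 CPM (507 to 538) in the CCl4+IPA library and 578 CPM (564 to 592) in the CCl4 library. Plasmacytoid dendritic cells had 365 and 390 CPM and neutrophils 370 and 243 CPM. In the CCl4+IPA library stromal or mesothelial cells (222 CPM), NK cells or ILC1 (221 CPM), T cells (171 CPM) and phagocytes (102 CPM, 85.4 to 122) followed. In the CCl4 library NK cells or ILC1 (215 CPM), phagocytes (207 CPM), T cells (182 CPM) and stromal or mesothelial cells (144 CPM, 127 to 163) followed. B cells stood apart from every other class of the 7 in both libraries, while neutrophils and plasmacytoid dendritic cells did not differ beyond counting error in the CCl4+IPA library. Among classes below the limit of 50 cells, 21 and 32 basophils or mast cells had 580 CPM (410.5 to 796) and 729 CPM (590 to 891).

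H1f0, the replacement subtype, was highest in stromal or mesothelial cells and low in B cells, where H1f2 was highest. Stromal or mesothelial cells had 107 CPM (89.2 to 127) in the CCl4+IPA library and 112 CPM (97.1 to 129) in the CCl4 library. Phagocytes had 72.7 and 84.8 CPM, plasmacytoid dendritic cells 62.7 and 61.9 CPM, and T cells 53.3 and 40.1 CPM. The low end was formed by NK cells or ILC1 (14.1 and 11.3 CPM), B cells (7.64 and 10.7 CPM) and neutrophils (4.65 and 9.24 CPM, from 9 and 19 UMIs). Stromal cells, phagocytes, plasmacytoid dendritic cells and T cells lay above all 3 of these classes in both libraries, with no overlap of intervals. The 17 and 13 hepatocytes had 228 CPM (161 to 312) and 121 CPM (48.5 to 249), and 44 and 51 plasma cells had 112 and 168 CPM.

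H1f3 was highest in B cells and low in neutrophils and stromal or mesothelial cells. B cells had 48.0 CPM (43.4 to 53.0) in the CCl4+IPA library and 74.3 CPM (69.4 to 79.5) in the CCl4 library. NK cells or ILC1 had 40.9 and 49.4 CPM, T cells 36.9 and 52.6 CPM, plasmacytoid dendritic cells 35.0 and 55.4 CPM and phagocytes 21.6 and 56.7 CPM. Stromal or mesothelial cells had 16.6 and 8.02 CPM and neutrophils 11.4 and 4.87 CPM. B cells were above the next class in the CCl4 library by more than counting error, but in the CCl4+IPA library their interval overlapped that of NK cells or ILC1 (33.9 to 49.0 CPM).

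H1f4 was high in NK cells or ILC1, B cells and phagocytes and low in stromal or mesothelial cells. NK cells or ILC1 had 114 CPM (102 to 127) in the CCl4+IPA library and 290 CPM (264 to 317) in the CCl4 library. B cells had 110 and 289 CPM, phagocytes 111 and 258 CPM, and T cells 94.0 and 168 CPM. Neutrophils had 65.2 and 102 CPM, plasmacytoid dendritic cells 45.9 and 131 CPM, and stromal or mesothelial cells 19.0 and 21.8 CPM. The 3 highest classes did not differ beyond counting error within the CCl4+IPA library. In the CCl4 library NK cells or ILC1 and B cells did not differ beyond it either.

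H1f10 had its highest level of the 7 classes in stromal or mesothelial cells, at 27.3 CPM (18.8 to 38.4, 33 UMIs) in the CCl4+IPA library and 21.8 CPM (15.4 to 29.9, 38 UMIs) in the CCl4 library. T cells had 2.48 and 1.78 CPM, from 29 and 19 UMIs. In the other 5 classes there were at most 1 UMI in the CCl4+IPA library and at most 5 UMIs in the CCl4 library. Neutrophils had 0 UMIs in both, which allows up to 1.55 and 1.46 CPM at a floor of 3 UMIs.

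**Figure D1:**
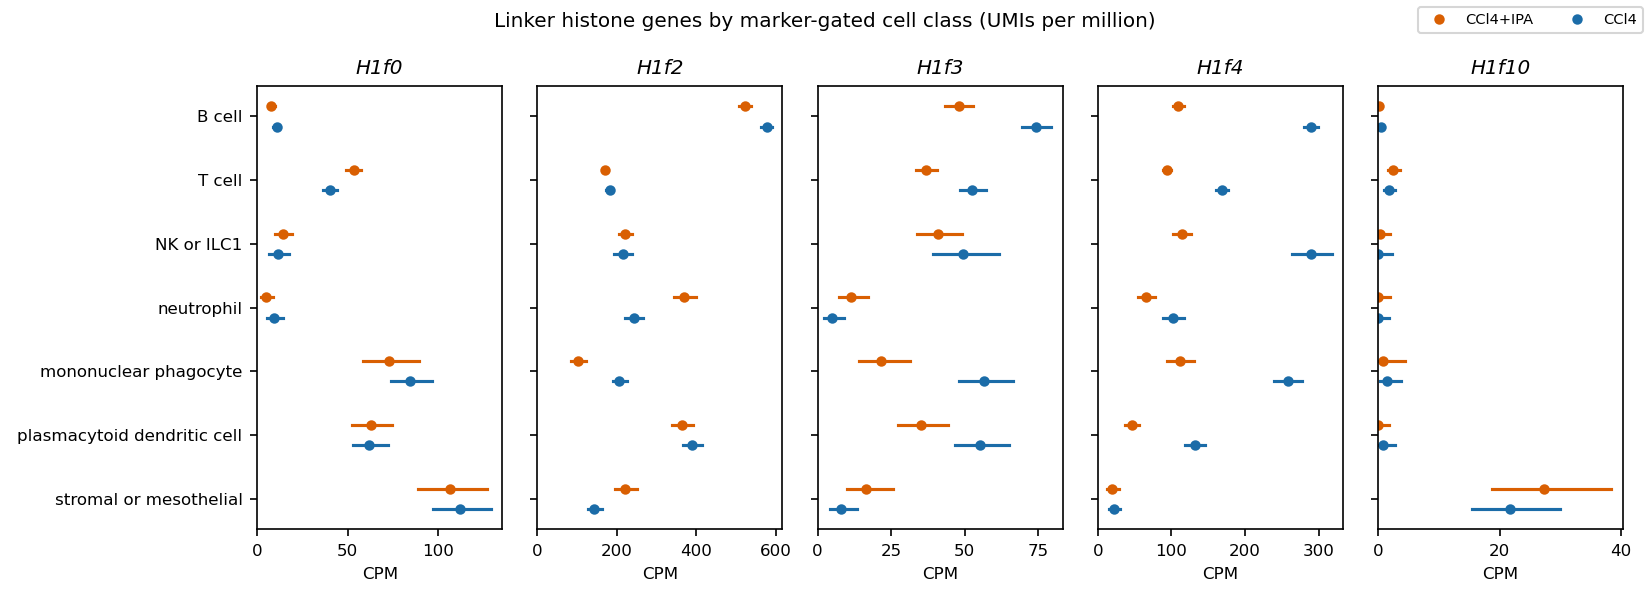
Levels of the 5 linker histone genes (CPM, linear axes that differ between genes) in 7 marker-gated cell classes of the CCl4+IPA library (orange, upper point of each pair) and the CCl4 library (blue, lower point), with exact Poisson 95% intervals. H1f2 peaks in B cells, H1f0 and H1f10 peak in stromal or mesothelial cells, and the H1f4 points of the CCl4+IPA library lie left of those of the CCl4 library in 6 classes without overlap.

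Across the 14 class-by-library levels, H1f3 and H1f4 were the most alike pair of members (Pearson r = 0.70 of log2(CPM + 10)), and H1f0 ran against H1f2 (r = -0.54) and H1f4 (r = -0.43). These points share their libraries, and the classes of 1 library share its depth, so r is a description. Of 11762 genes with at least 200 UMIs, the genes most like H1f3 were Rps25-ps1 (r = 0.90), the core histone gene H2ac20 (0.90), Zfp800 (0.89), Rpl36-ps2 (0.89) and the core histone gene H4c4 (0.89). Those most like H1f4 were Sass6 (0.87), the core histone gene H3c6 (0.84), Pfdn5 (0.83), H2ac20 (0.82) and Fau (0.81). H1f0 was most like Uqcr10 (0.94), Dynlrb1 (0.94), Cd3eap (0.93), Zfp995 (0.93) and Mettl21a (0.92). For H1f2 the nearest genes were Zbtb24 (0.89), the B cell lectin gene Siglecg (0.87), the AP-1 gene Jund (0.87), Gm16094 (0.86) and Gm14966 (0.85). H1f10 had too few UMIs to be ranked.

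The CCl4+IPA library was then set against the CCl4 library within each class. A ratio was called past 1.5-fold when the gene had at least 20 UMIs over both libraries. H1f4 was lower past 1.5-fold in the CCl4+IPA library in 6 of the 7 classes. Its ratio was 0.379 in B cells (0.351 to 0.408), 0.558 in T cells (0.517 to 0.602), 0.394 in NK cells or ILC1 (0.341 to 0.455), 0.641 in neutrophils (0.510 to 0.803), 0.431 in phagocytes (0.356 to 0.517) and 0.349 in plasmacytoid dendritic cells (0.275 to 0.440). Of all genes measured, 3.83% in B cells, 3.27% in T cells, 2.9% in NK cells or ILC1, 5.13% in neutrophils, 8.49% in phagocytes and 3.94% in plasmacytoid dendritic cells were lower past 1.5-fold. With equal weight per cell neutrophils fell short of 1.5-fold (log2 ratio -0.53, against -0.64 from summed UMIs), which left 5 classes. After each cell was thinned to 1000 UMIs, phagocytes fell short of it, with mean H1f4 UMIs per cell of 0.147 in CCl4+IPA and 0.191 in CCl4. The shares of genes are printed for scale, since H1f4 was chosen on this contrast. Stromal or mesothelial cells, where 13% of genes were lower past 1.5-fold, had 23 and 38 UMIs of H1f4 and a ratio of 0.875, with an interval (0.498 to 1.51) that holds 1.

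H1f3 was lower past 1.5-fold in B cells (ratio 0.647, 0.572 to 0.729), plasmacytoid dendritic cells (0.633, 0.469 to 0.846) and phagocytes (0.380, 0.243 to 0.575). Among non-cycling cells the log2 ratio was -0.58 in B cells and -0.50 in plasmacytoid dendritic cells, both short of 1.5-fold, and -0.89 in phagocytes. In T cells the ratio over all cells was 0.702 (0.618 to 0.797), short of that fold. It was higher past 1.5-fold in neutrophils (2.34, 1.06 to 5.53, from 22 and 10 UMIs) and in stromal or mesothelial cells (2.07, 0.992 to 4.42, from 20 and 14 UMIs), where 14.1% and 20.9% of genes were higher past it. The stromal value turned round when every cell weighed the same, with a log2 ratio of -0.65 in place of 1.05.

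H1f2 had an interval that excludes 1 in 5 of the 7 classes, and its ratio was past 1.5-fold in 3. It was 0.904 in B cells (0.870 to 0.940), 0.938 in T cells (0.881 to 0.999), 1.03 in NK cells or ILC1 (0.901 to 1.18) and 0.935 in plasmacytoid dendritic cells (0.850 to 1.03). In phagocytes it was 0.495 (0.405 to 0.601). In neutrophils it was 1.53 (1.36 to 1.71), and in stromal or mesothelial cells 1.54 (1.29 to 1.84). Both higher values lie at the 1.5-fold limit and were no longer past it relative to the median gene, described below.

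H1f0 and H1f10 were not higher past 1.5-fold in any of the 7 classes, where the share of genes higher past it was 17.2% in B cells, 17.3% in T cells, 19.9% in NK cells or ILC1, 17.1% in phagocytes and 16.3% in plasmacytoid dendritic cells, beside the values for neutrophils and stromal cells above. H1f0 had a ratio of 1.33 (1.17 to 1.51) in T cells and 0.712 (0.517 to 0.972) in B cells, and only the neutrophil value of 0.503 was past 1.5-fold, with an interval (0.201 to 1.17) that holds 1. In NK cells or ILC1 the ratio was 1.25 (0.703 to 2.31), in plasmacytoid dendritic cells 1.01 (0.796 to 1.29), in phagocytes 0.858 (0.666 to 1.10) and in stromal or mesothelial cells 0.952 (0.756 to 1.19). H1f10 had enough UMIs in 2 classes, T cells (1.39, 0.755 to 2.63) and stromal or mesothelial cells (1.26, 0.763 to 2.06). Neither differed beyond counting error. Of the other replication-dependent subtypes, H1f5 was lower past 1.5-fold in 5 of the 6 classes with enough UMIs and H1f1 in 1 of 4.

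**Figure D2:**
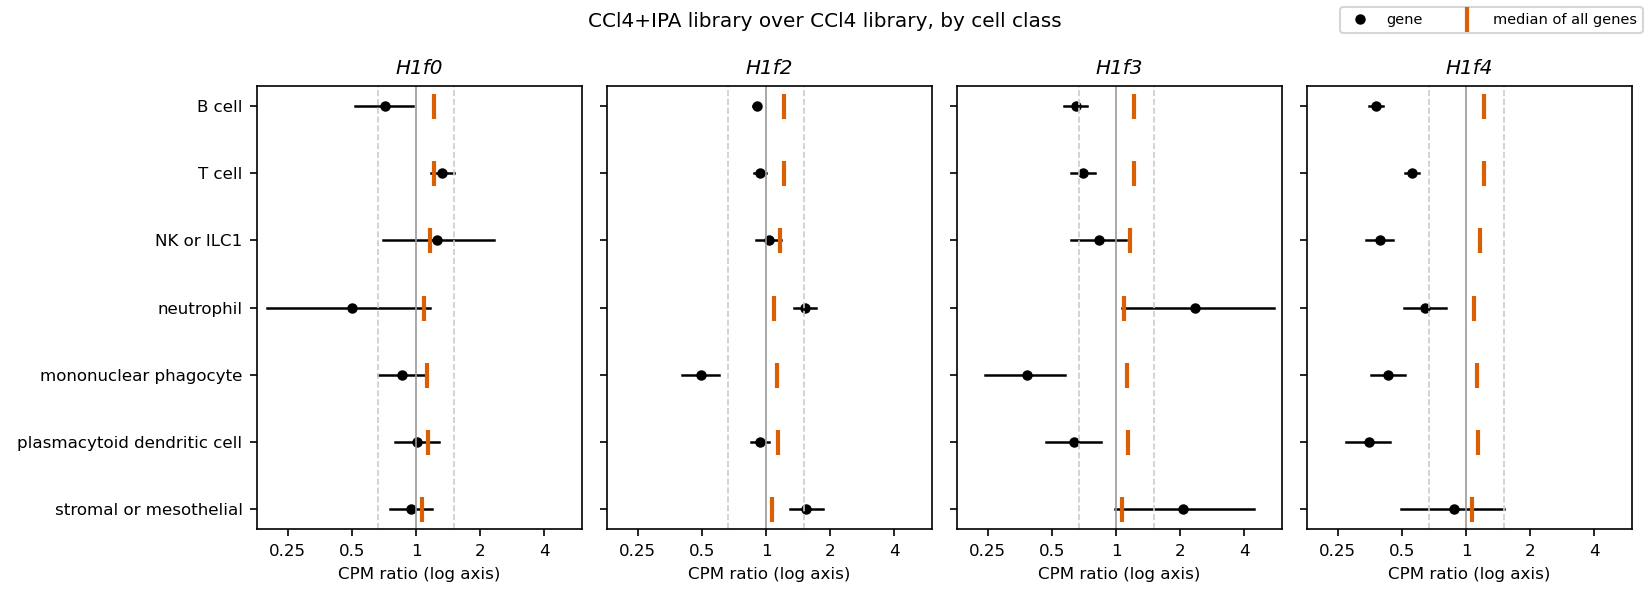
Ratios of CPM in the CCl4+IPA library over the CCl4 library (log axis) by cell class, with exact 95% intervals; the solid grey line marks 1, the dashed lines mark 1.5-fold in each direction and the orange bars mark the median ratio of all genes measured in that class. H1f4 lies left of the lower dashed line in 6 of 7 classes, while H1f0 lies between the dashed lines in 6 and H1f2 in 4.

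The median gene itself was higher in the CCl4+IPA library in every class, by log2 0.09 in stromal or mesothelial cells to 0.28 in T cells. The row Rn18s-rs5, which holds ribosomal RNA sequence, took 7206 to 13315 CPM of a class in the CCl4+IPA library and 47335 to 84626 CPM in the CCl4 library. The median mitochondrial share of a barcode was 1.78% in the CCl4+IPA library and 3.53% in the CCl4 library. Relative to the median gene, H1f4 was lower past 1.5-fold in the same number of classes, 6, with relative ratios of 0.31 in B cells and in plasmacytoid dendritic cells and 0.46 in T cells. On that scale the ratio of H1f0 was 1.09 in T cells, and it was lower past 1.5-fold in B cells (0.59) as well as in neutrophils (0.46). H1f3 was then lower past 1.5-fold in 4 classes and H1f2 higher past it in 0. The part of ribosomal RNA content or RNA quality in these differences was not tested.

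By their median, core histone genes were lower in the CCl4+IPA library in 6 of the 7 classes, neutrophils being the exception. Of the 59 replication-dependent core histone genes in the files, 34 were measured in B cells, and 15 were lower and 2 higher past 1.5-fold in the CCl4+IPA library (median log2 ratio -0.49, against 0.27 over all genes). H3c6 had a ratio of 0.402 and H2ac20 of 0.438 in B cells, while H2ac15 had 1.74 and H3c4 1.55. In T cells 16 of 49 were lower and 0 higher (median -0.45, against 0.28), from 0.198 for H4c17 to 1.40 for H2bc21. In NK cells or ILC1 17 of 25 were lower and 2 higher (median -0.74, against 0.22). In plasmacytoid dendritic cells 9 of 17 were lower (median -0.63, against 0.19) and in stromal or mesothelial cells 4 of 8 (median -0.53, against 0.09). Phagocytes had 21 of 25 lower and 1 higher (median -1.47, against 0.17), including H2ac20 at 0.209, and H2ac6 was higher at 1.63. Neutrophils had 0 of 8 lower and 2 higher (median 0.12, against 0.13).

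The 20 cell cycle genes used to find cycling cells also differed between the libraries. In plasmacytoid dendritic cells 8 of 10 measured were lower past 1.5-fold in CCl4+IPA (summed level 51.3 CPM, against 196 CPM in CCl4), and in stromal or mesothelial cells 11 of 11 (44.7 CPM, against 304 CPM). In NK cells or ILC1 6 of 19 were lower and 2 higher (471 and 556 CPM), in phagocytes 6 of 20 were lower and 1 higher (486 and 538 CPM), and in B cells 2 of 18 were lower and 2 higher (72.2 and 66.4 CPM). T cells had 15 of 20 higher (1436 CPM, against 845 CPM), and none was measured in neutrophils. Among non-cycling cells the log2 ratio of H1f4 was -1.39 in B cells, -0.97 in T cells, -1.14 in NK cells or ILC1, -0.71 in neutrophils, -1.05 in phagocytes and -1.49 in plasmacytoid dendritic cells, past 1.5-fold in each of these 6. The part of cycling cells in the core histone differences of plasmacytoid dendritic and stromal or mesothelial cells was not tested.

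Genes that handle histones gave other counts, to be read beside the shares of all genes above. Of 12 genes listed as core histone variants made outside S phase, 9 were measured in each of B and T cells. In B cells 0 were past 1.5-fold (median log2 ratio 0.09), and in T cells 2 were higher and 0 lower (median 0.27). In NK cells or ILC1 2 of 9 were lower and 0 higher (median 0.02, against 0.22 over all genes). Plasmacytoid dendritic cells also had 2 of 9 lower and 0 higher (median -0.08, against 0.19). Phagocytes had 1 of 9 lower and 0 higher, and stromal or mesothelial cells 1 of 9 lower and 1 higher. Neutrophils had 0 of 8 lower and 1 higher. Of 19 genes for histone mRNA processing and transcription, 1 was higher and 0 were lower past 1.5-fold in B cells (median 0.19, against 0.27 over all genes), and 0 were past it in T cells (median 0.24, against 0.28). Slbp, whose protein binds the histone stem-loop, had a ratio of 1.26 in B cells and 1.41 in T cells. Of 21 measured linker histone chaperones, competitors and modifiers in T cells, 3 were higher and 1 was lower past 1.5-fold (median 0.29), where 17.3% of all genes were higher and 3.27% lower. The lower one was Hmga1, a DNA-binding protein that competes with H1, at 0.417. In phagocytes 4 of 21 genes of this list were lower and 1 higher (median -0.02, against 0.17), where 8.49% of all genes were lower. NK cells or ILC1 had 2 of 20 lower and 1 higher, and stromal or mesothelial cells 2 of 19 lower and 3 higher. B cells, neutrophils and plasmacytoid dendritic cells had 0 lower, with 1, 2 and 1 higher.

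Phagocytes were the only class of the 7 in which H1f2, H1f3 and H1f4 were all lower past 1.5-fold. The H1f2 value depended on how the class was formed, with a log2 ratio of -1.01 under the gate, -0.53 in phagocytes taken from Leiden clusters and -0.58 when every cell weighed the same, the last pair short of 1.5-fold. Phagocytes marked by C1q were unevenly shared between the libraries. At least 3 UMIs of C1qa, C1qb and C1qc together were found in 19 cells of CCl4+IPA and 137 cells of CCl4. These cells were shallow, with medians of 1500 and 1168 UMIs, and the part of free RNA in their C1q counts was not tested. Phagocytes without a C1q UMI had medians of 6010 and 7716 UMIs. Among phagocytes with no such UMI, 193 and 302 cells, the ratio was 0.473 for H1f2 (0.385 to 0.577), 0.336 for H1f3 (0.212 to 0.512), 0.405 for H1f4 (0.334 to 0.488) and 0.846 for H1f0 (0.647 to 1.10). In these cells 8.07% of genes were lower past 1.5-fold. Cycling cells made up 7 of 218 phagocytes in CCl4+IPA and 21 of 462 in CCl4. Among non-cycling phagocytes H1f4 had 94.9 CPM (75.9 to 117) in CCl4+IPA and 197 CPM (177 to 218) in CCl4.

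The share of cells with a UMI was set beside the levels in B and T cells and in phagocytes. After each cell was thinned to 1000 UMIs, 10.2% of B cells in CCl4+IPA (9.13% to 11.3%, exact Clopper-Pearson) and 22.6% in CCl4 (21.3% to 24.0%) had a UMI of H1f4. Among T cells the shares were 7.37% and 11.5%. For H1f2 they were 32.1% and 36.0% of B cells and 14.8% and 15.0% of T cells. In phagocytes 13.2% (8.91% to 18.7%) and 14.2% (10.9% to 18.0%) had a UMI of H1f4, intervals that overlap although the levels were 111 and 258 CPM, and 6.86% and 17.5% had a UMI of H1f2. Thinning left out 123 and 93 B cells and 14 and 74 phagocytes. Without thinning, H1f4 was seen in 22.4% and 47.9% of B cells. No cell class lacks linker histones, so none could serve as a background for free RNA.

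Cycling cells were those with at least 3 of 20 cell cycle genes detected (Mki67, Top2a and others, with no histone gene among them), and non-cycling cells those with none. Among gated cells there were 308 cycling against 7175 non-cycling cells in CCl4+IPA, and 222 against 7075 in CCl4. A further 96 and 115 cycling cells, with medians of 11678 and 16719 UMIs, entered no class and are left out here. T cells made up 240 and 139 of the gated cycling cells, so T cells alone are described first. Cycling T cells had more UMIs than non-cycling T cells, with medians of 7661 against 2973 in CCl4+IPA and 8572 against 3810 in CCl4, and the part of this depth in the ratios within T cells was not tested.

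Within T cells, H1f3 and H1f4 were higher past 2-fold in cycling than in non-cycling cells of both libraries. H1f4 had 203 CPM in cycling and 63.1 CPM in non-cycling T cells of the CCl4+IPA library, a ratio of 3.22 (2.81 to 3.69). In the CCl4 library it had 517 and 124 CPM, a ratio of 4.19 (3.78 to 4.64). H1f3 had 85.1 and 26.9 CPM in the CCl4+IPA library (3.16, 2.56 to 3.91) and 166 and 35.9 CPM in the CCl4 library (4.63, 3.83 to 5.58). Of all genes measured, 10.3% in CCl4+IPA and 9.72% in CCl4 were higher past 2-fold.

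H1f2 did not follow them. It had 98.5 CPM in cycling and 188 CPM in non-cycling T cells of the CCl4+IPA library, a ratio of 0.525 (0.451 to 0.607). In the CCl4 library it had 202 and 182 CPM, a ratio of 1.11 (0.965 to 1.27) that does not differ from 1 beyond counting error. H1f0, known as the subtype of non-dividing cells, had 73.0 CPM in cycling and 42.9 CPM in non-cycling T cells of CCl4+IPA (1.70, 1.39 to 2.08) and 53.9 and 35.3 CPM in CCl4 (1.52, 1.15 to 2.00). H1f10 had 21 UMIs in cycling and 5 in non-cycling T cells of CCl4+IPA, a ratio of 12.8 (4.69 to 43.4). In CCl4 it had 14 UMIs in 139 cycling and 3 in 1742 non-cycling T cells, under the limit of 20 UMIs for a ratio.

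The other replication-dependent subtypes gave the scale of the contrast. H1f5 had a cycling over non-cycling ratio of 69.7 (53.0 to 93.6) in T cells of CCl4+IPA and 57.7 (47.8 to 70.1) in those of CCl4. For H1f1 the ratios were 11.3 and 8.89. Of the 59 core histone genes, 37 were measured in T cells of CCl4+IPA and 34 were higher past 2-fold (median log2 ratio 2.87, against -0.06 over all genes). In CCl4 it was 33 of 40 (median 2.76). H2ac8 had 623 CPM in cycling and 8.82 CPM in non-cycling T cells of CCl4+IPA, while H2bc4 had 80.9 and 55.6 CPM. Of the 9 measured genes listed as variants made outside S phase, 5 were higher past 2-fold in each library, and H3f3b was at 1.16 in both. H2ax, which is on that list although its GENCODE transcript holds a match to the stem-loop letters, was at 14.4 and 11.3. Slbp was at 2.25 and 2.59. Of the chaperones, competitors and modifiers, without Cdk1, which served to define cycling cells, 20 were measured and 13 were higher past 2-fold in each library, led by Hmgb2 at 9.98 and 9.83.

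Over all gated cells the cycling over non-cycling ratio of H1f2 was 0.293 in CCl4+IPA and 0.662 in CCl4, and that of H1f0 was 2.12 and 4.21. Lower past 2-fold were 19.7% of genes in CCl4+IPA and 15.5% in CCl4. These pooled ratios mix classes, with 2839 and 3402 B cells among the non-cycling cells and 11 in each library among the cycling cells. H1f4 was at 2.36 and 2.79 over all gated cells and H1f3 at 2.40 and 3.28, where 11.1% of genes in CCl4+IPA and 11.5% in CCl4 were higher past 2-fold. H1f10 was at 6.29 and 14.1 over all gated cells.

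**Figure D3:**
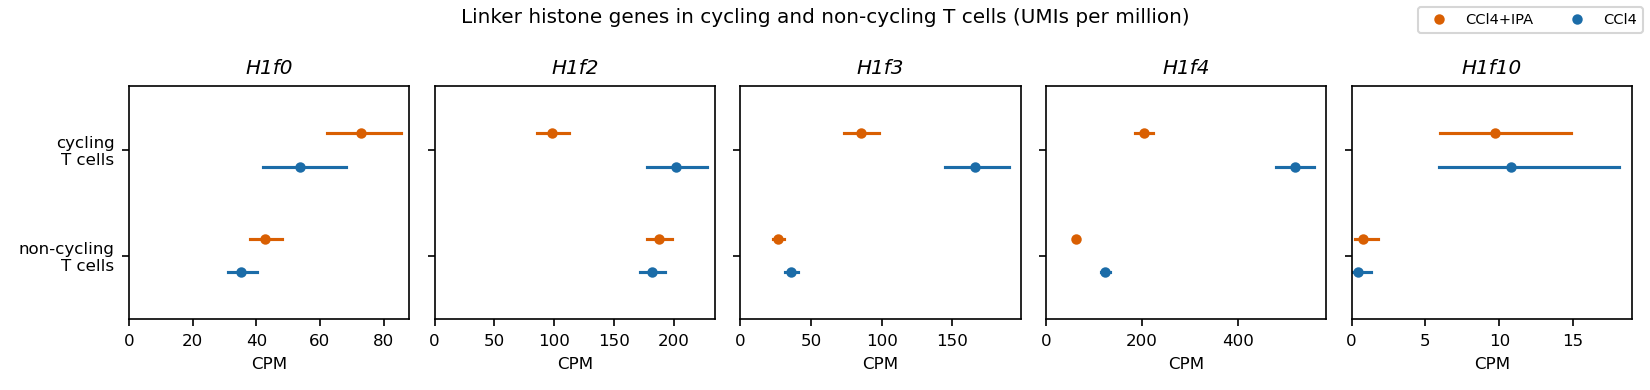
Levels of the 5 linker histone genes (CPM, linear axes that differ between genes) in cycling and non-cycling T cells of the CCl4+IPA library (orange, upper point of each pair) and the CCl4 library (blue, lower point), with exact Poisson 95% intervals. H1f0, H1f3 and H1f4 are higher in cycling T cells of both libraries, H1f10 rests on 14 and 3 UMIs in CCl4, and H1f2 is lower in cycling than in non-cycling T cells of the CCl4+IPA library.

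The difference between libraries was wider in cycling T cells for H1f2. In cycling T cells the CCl4+IPA over CCl4 ratio of H1f2 was 0.488 (0.406 to 0.587), against 1.03 (0.951 to 1.12) in non-cycling T cells. The ratio of H1f3 was 0.512 (0.418 to 0.626) in cycling and 0.749 (0.613 to 0.912) in non-cycling T cells. H1f4 had 0.392 (0.347 to 0.443) in cycling and 0.510 (0.453 to 0.575) in non-cycling T cells, and H1f0 had 1.36 (1.02 to 1.82) and 1.21 (1.02 to 1.45). In cycling T cells 3.37% of all genes were lower past 1.5-fold, and in non-cycling T cells 3.06%. The difference between these ratios was not tested. Of 39 measured core histone genes 28 were lower past it in cycling T cells (median log2 ratio -0.90, against 0.23).

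Cycling T cells were split by whether genes of S phase or of mitosis held more UMIs, into 129 S-type and 104 mitosis-type cells in CCl4+IPA and 87 and 49 in CCl4. H1f0 was lower in S-type cells, at 53.2 CPM against 102 CPM in mitosis-type cells of CCl4+IPA (ratio 0.524, 0.376 to 0.728) and 32.9 against 83.8 CPM in CCl4 (0.393, 0.230 to 0.656). H1f4 had 210 CPM in S-type and 194 CPM in mitosis-type cells of CCl4+IPA, without a difference beyond counting error, and 387 and 716 CPM in those of CCl4. H1f2 had ratios of 0.827 (0.624 to 1.10) in CCl4+IPA and 0.574 (0.446 to 0.738) in CCl4, and H1f3 of 1.16 (0.851 to 1.58) and 0.678 (0.515 to 0.894). Lower past 2-fold were 3.81% of genes in CCl4+IPA and 5.09% in CCl4. Core histone genes were not higher in S-type cells as a list. In CCl4+IPA 3 of 32 measured were lower and 1 higher past 2-fold (median log2 ratio -0.13, against -0.02 over all genes). In CCl4 11 of 33 were lower and 0 higher (median -0.78, against -0.03). Whether the cells called S-type were copying DNA was not tested. H1f10 had 16 UMIs in S-type and 5 UMIs in mitosis-type cells of CCl4+IPA. In CCl4 it had 14 UMIs (18.4 CPM) in S-type and 0 UMIs in mitosis-type cells, where 0 UMIs allow up to 5.71 CPM at a floor of 3 UMIs.

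Among non-cycling T cells, H1f0 separated activated from naive cells most widely of the members. Activated or effector T cells, by markers such as Cd44, Icos and Nkg7, had 67.2 CPM in CCl4+IPA and naive T cells, by markers such as Ccr7, Lef1 and Tcf7, had 13.6 CPM, a ratio of 4.94 (3.36 to 7.51). In CCl4 the levels were 56.1 and 12.6 CPM, a ratio of 4.45 (2.93 to 7.04). Of all genes measured, 14.1% in CCl4+IPA and 14.9% in CCl4 were higher past 2-fold. H1f3 had ratios of 2.20 (1.504 to 3.30) and 1.83 (1.33 to 2.56), H1f4 of 1.52 (1.21 to 1.93) and 1.57 (1.33 to 1.86), and H1f2 of 1.27 (1.12 to 1.45) and 1.29 (1.13 to 1.47). H1f5 was at 3.94 and 6.71, from 7 and 9 UMIs in naive cells. The core histone list showed little of this, with 4 of 19 measured genes higher past 2-fold in CCl4+IPA and 3 of 22 in CCl4 (median log2 ratios 0.21 and 0.35, against 0.22 and 0.25 over all genes). Hmgn1, which competes with linker histones for nucleosomes, was lower past 2-fold at 0.416 and 0.386, and Hmgb2 was at 2.01 and 2.06.

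By coreceptor, activated CD4 T cells had the highest H1f0 of the 4 subsets, at 164 CPM (131 to 203, 169 cells) in CCl4+IPA and 77.5 CPM (57.2 to 103, 158 cells) in CCl4. Naive CD4 T cells had 24.3 and 16.8 CPM, activated CD8 T cells 37.8 and 32.4 CPM, and naive CD8 T cells 9.65 and 2.98 CPM, the last from 10 and 3 UMIs. The intervals of activated CD4 T cells did not overlap those of the other 3 subsets in either library. Over all non-cycling CD4 T cells the CCl4+IPA over CCl4 ratio of H1f0 was 1.79 (1.29 to 2.50), where 21% of genes were higher past 1.5-fold. Over all non-cycling CD8 T cells it was 1.24 (0.896 to 1.73). H1f4 was lower past 1.5-fold in both, at 0.561 and 0.463, where 4.14% and 2.41% of genes were lower past it.

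**Figure D4:**
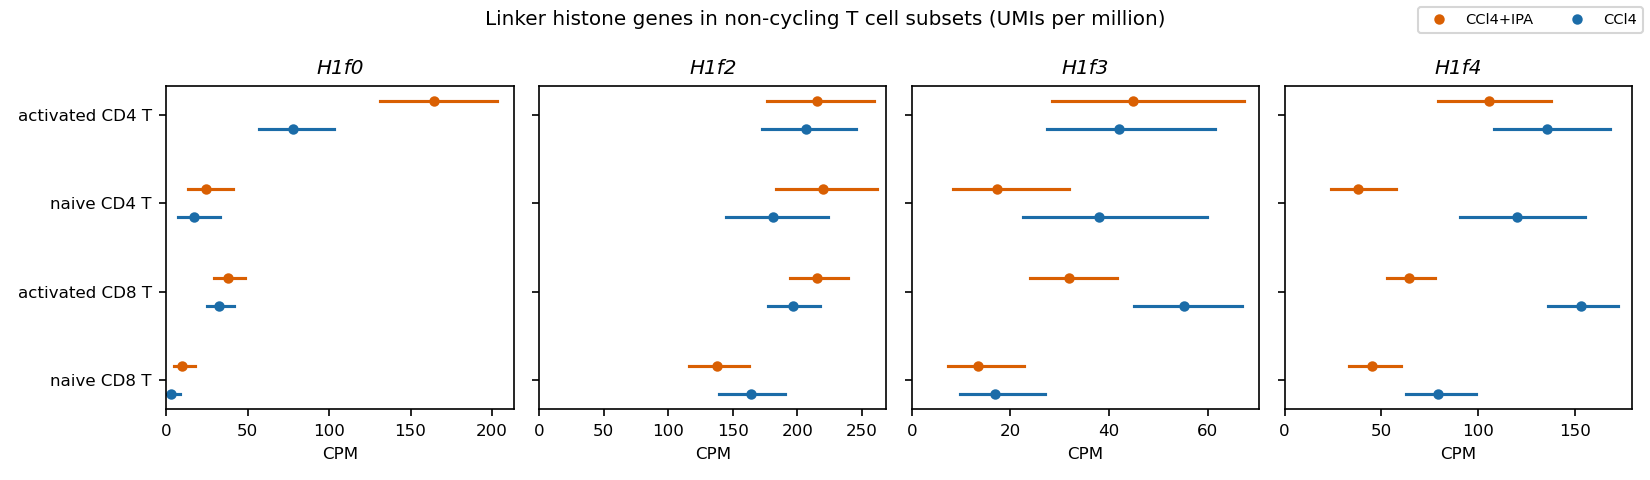
Levels of H1f0, H1f2, H1f3 and H1f4 (CPM, linear axes that differ between genes) in 4 subsets of non-cycling T cells of the CCl4+IPA library (orange, upper point of each pair) and the CCl4 library (blue, lower point), with exact Poisson 95% intervals. H1f0 is highest in activated CD4 T cells of both libraries, and H1f2 spans 138 to 220 CPM over the subsets.

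Cycling cells of other classes were few. Cycling phagocytes had 430 CPM of H1f4 (283 to 626, 7 cells) in CCl4+IPA and 1034 CPM (906 to 1175, 21 cells) in CCl4. Cycling NK cells or ILC1 had 193 CPM (131 to 274, 22 cells) and 558 CPM (435 to 705, 13 cells). Plasma cells, below the limit of 50 cells, had 3 cycling cells of 44 in CCl4+IPA and 17 of 51 in CCl4, and their H1f4 level was 154 CPM against 440 CPM. Among non-cycling plasma cells H1f4 had 115 CPM (72.4 to 175, 20 cells) in CCl4+IPA and 110 CPM (68.7 to 166, 17 cells) in CCl4.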

How the data were processed

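The authors deposited, for each of the 2 libraries, a matrix of raw UMI counts per gene and cell barcode whose header names Cell Ranger 7.1.0 as its source, per the file headers. The genome build named is mm9, per the submitters' processing notes. Genes are given by symbol and identifier, and each member has 1 row. The members, marker lists and gene lists were chosen with earlier results of these data known.

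The cell filter asked for 500 or more UMIs, 300 or more genes and a mitochondrial share below 20% and passed 10459 barcodes in CCl4+IPA and 10294 in CCl4. Scrublet calls (331 barcodes, 3.16%, and 278 barcodes, 2.70%) were left out. Cells with markers of several classes (906 and 1213) or of none (113 and 129) entered no class. Of those with several, 623 and 584 had markers of both T cells and NK cells or ILC1. The T cell and NK cell or ILC1 classes thus leave out cells that share these markers. UMIs were summed per library and class and scaled to 1000000 UMIs, with exact Poisson intervals for levels, exact conditional binomial intervals for ratios and exact Clopper-Pearson intervals for shares. UMIs of 1 library are not biological replicates, so the intervals cover counting error only and no test was made between the libraries. A gene at 0 UMIs was set at a floor of 3 UMIs. The calculation was tested on simulated counts with known fold changes. Beside the members, the named genes are the other linker histone genes, 2 to 4 genes per list with the largest and smallest ratios, and the 5 genes most like each member; Slbp, Hmgb2, Hmgn1 and H3f3b were added for their known roles after their values were seen. Alternatives covered the gate, the cell filter, doublet calls, scaling, the definition of cycling cells, thinning and Leiden clusters. The C1q split and the repeats for the core histone list were added after seeing the data. Promoter windows came from RefSeq (GRCm38.p6) and transcripts from GENCODE (GRCm38), and no count was mapped with either. The software was Python 3.11.15 with scanpy 1.11.5 (filters, Scrublet, clusters), scipy 1.17.1 (intervals), pandas 2.3.3, numpy 2.4.6 and matplotlib 3.10.9.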

Additional observations from a re-analysis of the deposited data

Results flagged for a closer look

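For 3 of the members the CCl4+IPA over CCl4 ratio lay above 1 in one cell class and below 1 in another, with intervals on opposite sides of 1. H1f0 had a log2 ratio of 0.41 in T cells and -0.49 in B cells. H1f2 had 0.63 in stromal or mesothelial cells and -1.01 in phagocytes. H1f3 had 1.23 in neutrophils, from 22 UMIs in CCl4+IPA and 10 UMIs in CCl4, and -1.40 in phagocytes. With 1 library per group these differences between classes were not tested.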

How the results depend on the processing

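No paired analysis was possible because each group has 1 library, and for the same reason no replicate could be left out. H1f4 was lower past 1.5-fold in 6 of 7 classes under the alternatives of gate, cell filter, doublet calls, scaling, non-cycling cells and Leiden clusters. With equal weight per cell it was 5, without neutrophils. Thinning also changed which classes were past 1.5-fold. At 1000 UMIs phagocytes fell short, with mean H1f4 UMIs per cell of 0.147 in CCl4+IPA and 0.191 in CCl4, while neutrophils (0.0535 and 0.0821) did not. At 500 UMIs neutrophils fell short (0.037 and 0.0455), while phagocytes (0.0596 and 0.0952) did not. Keeping doublet calls, the looser gene filter and the mitochondrial limit of 10% each left 32 of 32 single-gene values within counting error.

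Among counts of classes, the stricter gate left H1f2 higher in 0 (2 in the report) and H1f3 higher in 1 (2). With Leiden clusters, H1f0 was lower in 0 (1), and H1f2 was lower in 0 (1) and higher in 1 (2). With equal weight per cell, H1f0 was higher in 1 (0), H1f2 higher in 0 and lower in 0, H1f3 higher in 1 and H1f10 higher in 1 (0). The stromal log2 ratio of H1f3 was then -0.65. Scaling without mitochondrial and ribosomal genes, and subtracting the median gene, each left H1f0 lower in 2 and H1f2 higher in 0. With non-cycling cells only, H1f3 was lower in 1 (3), phagocytes, and higher in 1, and H1f10 higher in 1.

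The pooled cycling over non-cycling log2 ratios moved most when T cells were taken alone. In CCl4+IPA they were then 0.77 for H1f0 (1.08 in all gated cells), -0.93 for H1f2 (-1.77), 1.66 for H1f3 (1.26), 1.69 for H1f4 (1.24) and 3.68 for H1f10 (2.65). In CCl4 they were 0.61 for H1f0 (2.07), 2.21 for H1f3 (1.71), 2.07 for H1f4 (1.48) and 0.15 for H1f2, turned round against -0.59; the cause was not tested. With at least 2 cycling genes they were -1.22 (H1f2), 0.92 (H1f3) and 1.01 (H1f4) in CCl4+IPA and 1.84 (H1f0), 1.27 (H1f3) and 1.07 (H1f4) in CCl4. With at least 6 they were 1.42 (H1f4) in CCl4+IPA and -0.44 (H1f2), 1.93 (H1f3) and 1.69 (H1f4) in CCl4. After thinning to 1000 UMIs they were 1.42 (H1f0), -1.52 (H1f2) and 0.93 (H1f3) in CCl4+IPA and 2.05 (H1f3), 1.17 (H1f4) and 5.55 (H1f10) in CCl4. The H1f10 value rests on very few UMIs. At that depth 5 of 2420 T cells of CCl4 had one, as did 1 cell each of phagocytes, plasmacytoid dendritic cells and stromal or mesothelial cells. B cells, NK cells or ILC1 and neutrophils had 0. Scaling without mitochondrial and ribosomal genes gave 1.38 for H1f4 in CCl4.

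Shares of cells with a UMI follow depth. Without thinning and at 500 UMIs, H1f2 was seen in 50.3% and 20.1% of B cells in CCl4+IPA and in 58.6% and 22.2% in CCl4, and H1f4 in 22.4% and 5.21% in CCl4+IPA and in 47.9% and 12.8% in CCl4. In T cells H1f2 was seen in 34.1% and 8.31% in CCl4+IPA and in 39.8% and 8.36% in CCl4, and H1f4 in 20.3% and 3.43% in CCl4+IPA and in 30.8% and 6.87% in CCl4.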
